A study of Mus musculus with 6 samples.

Results

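A set of 9 genes of mineralocorticoid action and of the WNK kinase pathway were followed in collecting duct cells of mice on a low-NaCl or a high-NaCl diet. They are Nr3c2, Nr3c1, Hsd11b2, Nedd4l, Wnk1, Wnk4, Stk39, Klhl3 and Klhl2, 9 of the 24840 genes to which a counted identifier was matched. A UCSC transcript identifier was given to a gene where at least 50% of its exonic bases lay in exons of that gene on the same strand, and the reads of all identifiers of a gene were summed. Every mouse was a male of the inbred strain C57BL/6J, and the labels name no transgene or drug in either diet. The low-NaCl group (3 libraries) ate a diet with 0.01 to 0.02% sodium for 5 days, and the high-NaCl group (3 libraries) ate a diet with 2.4% sodium for 5 days. Age, the way the cells were isolated and any pooling of animals are not stated in the labels. The labels do not tie a library to an animal, so the p-values reflect library-to-library spread that could be technical.

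Aldosterone, the steroid released when sodium intake is low, acts in the collecting duct through the mineralocorticoid receptor, which is encoded by Nr3c2. Cortisol and corticosterone bind that receptor as well, and the enzyme encoded by Hsd11b2 inactivates them in these cells. The ubiquitin ligase NEDD4-2, from Nedd4l, removes the epithelial sodium channel ENaC from the cell surface. The WNK kinases respond to chloride and potassium and activate the kinase SPAK, from Stk39, which phosphorylates sodium-chloride cotransporters, best known from the neighbouring distal convoluted tubule. KLHL3 and KLHL2 bring WNK kinases to a CUL3 ubiquitin ligase for degradation.

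None of the 9 genes passed the test of the diet difference, and parts of very different size could be counted in them. The receptor Nr3c2, its guarding enzyme Hsd11b2 and the SPAK gene Stk39 had lower levels in all 3 low-NaCl libraries than in all 3 high-NaCl libraries. Among all 10519 tested genes, 11.6% separated the diets in that direction and 23.9% in either. Most Stk39 reads came from 1 identifier that starts inside the gene. Wnk4 measured 1.44-fold less on the low-NaCl diet, but the diets overlapped, and Nedd4l, Klhl3 and Klhl2 overlapped widely. Nr3c1 and Wnk1 had too few reads to test.

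The genes cannot be read alike, because a read was counted only where it overlapped a single identifier. The countable bases of a gene are those that lie in exons of 1 identifier alone, on either strand. Nr3c2 (chromosome 8, 76899442 to 77245012, build mm10) has a single identifier, and all 4087 exonic bases of that identifier were countable, 2940 of them coding. Klhl3 (chromosome 13, 58000228 to 58113592) also has a single identifier, with 2142 countable bases, of which 1747 were coding. In Nr3c2 and Klhl3 the exons of the identifier end inside the span of the gene, so exonic bases of the gene beyond them were not counted. The identifiers of the other 7 genes were countable in part. Wnk4 (chromosome 11, 101260567 to 101277409) was countable over 686 coding bases, or 16.5% of its exonic length, which are exon 14, exon 15 and the last 50 bases of exon 2. Hsd11b2 (chromosome 8, 105518755 to 105523988) was countable over the first 42 bases of exon 3, or 2.27%, where its identifiers differ by the splice acceptor.

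Stk39 (chromosome 2, 68210445 to 68472268) was countable over 1105 bases, 25.4% of its exonic length, none of them in a coding exon. Nedd4l (chromosome 18, 64887705 to 65217828) was countable over 5992 bases, of which 5199 lie in exons of transcripts annotated as retained introns and 180 are coding. Klhl2 (chromosome 8, 64739675 to 64850017) was countable over 1994 bases, 1938 of them in its 3' untranslated region. Nr3c1 (chromosome 18, 39410545 to 39519421) was countable over 493 bases, 445 of them in alternative 5' untranslated exons, and no coding base of it was countable. Wnk1 (chromosome 6, 119923969 to 120038672) was countable over 604 bases, 4.21% of its exonic length, in alternative exons and retained introns.

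**Figure D1:**
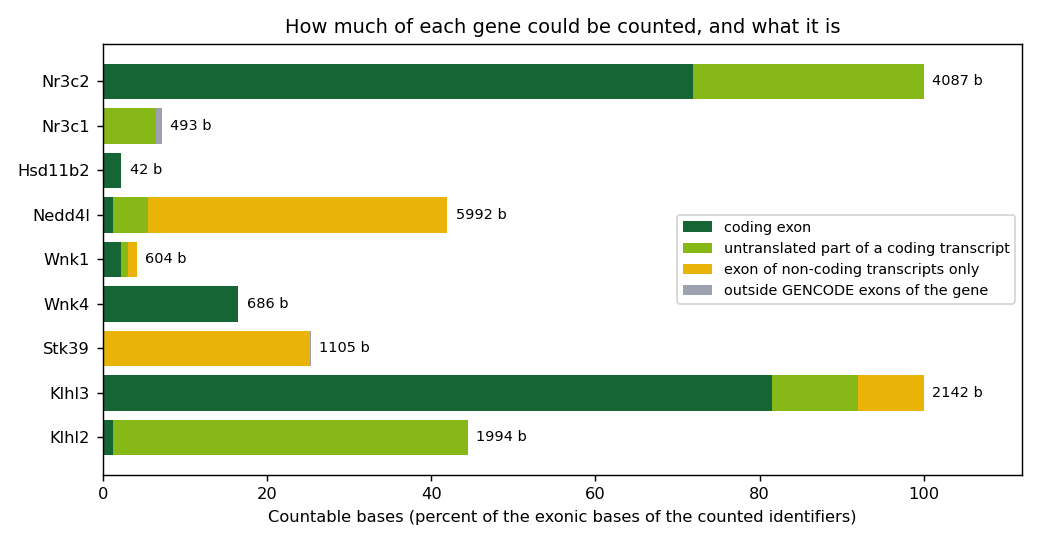
Countable bases of each gene as a percent of the exonic bases of its counted identifiers (x axis), coloured by what GENCODE annotates there, with the number of countable bases written at the bar's end. Nr3c2 and Klhl3 reach 100%, Hsd11b2 has 42 countable bases, and no countable base of Stk39 or Nr3c1 is coding.

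These stretches show how narrow the window on a gene was. They are read from the GENCODE M21 transcripts of GRCm38, the assembly that UCSC calls mm10, 5′ to 3′ on the gene's strand. Capitals mark the countable bases in the Hsd11b2 and Wnk4 sequences, and lower case marks the 20 neighbouring bases of the spliced transcript on each side. In the Stk39 pair, capitals mark the last 30 bases of the exon before the join and lower case the first 20 bases of exon 6.
Hsd11b2, start of exon 3, chr8:105522473-105522514, + strand: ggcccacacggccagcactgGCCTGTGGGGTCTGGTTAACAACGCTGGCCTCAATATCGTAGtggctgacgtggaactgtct
Wnk4, end of exon 2, chr11:101262846-101262895, + strand: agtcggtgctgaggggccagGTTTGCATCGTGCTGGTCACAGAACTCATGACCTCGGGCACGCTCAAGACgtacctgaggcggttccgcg
Wnk4, exon 15, chr11:101275630-101275690, + strand: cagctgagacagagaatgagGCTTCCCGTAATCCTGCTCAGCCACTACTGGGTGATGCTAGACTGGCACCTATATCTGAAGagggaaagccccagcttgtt
Stk39 internal start, chr2:68386340-68386369, - strand: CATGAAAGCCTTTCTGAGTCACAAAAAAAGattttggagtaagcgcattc
Stk39 full-length, chr2:68390914-68390943, - strand: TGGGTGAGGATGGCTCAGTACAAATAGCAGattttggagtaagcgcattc
Both Stk39 transcripts read the same exon 6 in lower case. They differ in the exon before it, which is exon 5 in the full-length transcript and an exon of its own, between exons 5 and 6, in the other. Only that second exon was countable.

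The libraries held 40101899 to 46861531 counted reads. The share of reads from mitochondrial genes was 20.5 to 21.8% in low-NaCl libraries and 21.9 to 29.9% in high-NaCl libraries. Principal cell markers (Aqp2, Aqp3, Aqp4, Avpr2, Scnn1g and Fxyd4) summed to 3120 to 4761 CPM on the low-NaCl diet and 8770 to 10925 CPM on the high-NaCl diet, and 3 of the 5 tested were called lower. CPM are read counts divided by the TMM-scaled library total, per 1e6 reads. Intercalated cell markers (Foxi1, Atp6v1g3, Atp6v0d2, Atp6v1b1, Slc4a1 and Slc26a4) summed to 2451 to 4763 CPM in low-NaCl libraries and 1679 to 1874 CPM in high-NaCl libraries, with 4 of 6 called higher. Of the connecting tubule markers, 2 of the 3 tested were called lower, Calb1 (log2 fold change -1.36, adjusted p = 0.0066 by edgeR) and Trpv5 (-1.43, adjusted p = 0.0419), while Klk1 was not (-0.16, adjusted p = 0.716). With a lane term the log2 fold changes were -0.89 for Calb1 and -1.56 for Trpv5. The Trpv5 call ended with no filter, with total-count scaling and without any 1 library except low-NaCl library 3 (adjusted p 0.0614 to 0.163). The part of these markers, and of the mitochondrial share, in the results below was not tested. In RNA of whole cell isolates, fewer cells of a type and less RNA per cell cannot be told apart. Lane 1 of the sequencer held library 1 of both diets, and no other lane held both diets. In a fit with a lane term the diet difference therefore rests on library 1 of each diet. Such a fit cannot decide whether a call holds, so only its log2 fold changes are given.

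The receptor itself was measured over all exons of its single identifier. Nr3c2 had 596, 571 and 1050 reads in low-NaCl libraries 1 to 3, against 1029, 1503 and 982 reads in high-NaCl libraries 1 to 3. Its level was 14.8, 13.0 and 24.8 CPM in the low-NaCl libraries and 28.3, 28.8 and 26.1 CPM in the high-NaCl libraries. The diets did not overlap, but low-NaCl library 3 lay close to the high-NaCl libraries and well above the other two of its diet. The level averaged 17.5 ± 6.34 CPM on the low-NaCl diet and 27.7 ± 1.40 CPM on the high-NaCl diet (SD, n = 3 each). The SD was 36.2% of the mean on the low-NaCl diet, against 5.07% on the high-NaCl diet. The log2 fold change, low-NaCl minus high-NaCl, was -0.66 ± 0.23 (SE) and did not pass (adjusted p = 0.153, edgeR's quasi-likelihood test with Benjamini-Hochberg adjustment over 10519 genes). Without low-NaCl library 3 it was -0.99 with an adjusted p of 0.0331. Leaving out any other single library gave adjusted p 0.165 to 0.438, and with a lane term the log2 fold change was -0.93. Within lane 1 the log2 ratio of library 1 of the low-NaCl diet to library 1 of the high-NaCl diet was -0.93.

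The glucocorticoid receptor, Nr3c1, binds many of the same DNA sites as the mineralocorticoid receptor. Its countable exons gave 10, 5 and 12 reads in low-NaCl libraries 1 to 3 and 8, 4 and 7 reads in high-NaCl libraries 1 to 3. The diets overlapped, and the gene fell below the filter on low counts. Of its 46 reads in all, 42 came from identifier uc008esz.1, whose countable exon is 268 bases of a 5' untranslated region. The reads of Nr3c2 per read of Nr3c1, with 0.5 reads added to both, were 56.8, 104 and 84.0 in the low-NaCl libraries and 121, 334 and 131 in the high-NaCl libraries. This ratio was lower in every low-NaCl library, by 1.14 on the log2 scale (exact permutation test, two-sided, p = 0.1, which no split of 6 libraries into threes can go below, and 0.3 adjusted over the 3 ratios formed). It rests on 4 to 12 reads of Nr3c1 in each library.

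Hsd11b2 was read through the 42 bases of exon 3 printed above. It had 12, 16 and 39 reads in low-NaCl libraries 1 to 3, against 85, 96 and 52 reads in high-NaCl libraries 1 to 3. That is 0.298, 0.364 and 0.920 CPM on the low-NaCl diet and 2.34, 1.84 and 1.38 CPM on the high-NaCl diet. The diets did not overlap, and low-NaCl library 3 was again the highest of its diet. The log2 fold change was -1.80 ± 0.44 (SE), a 3.49-fold lower level on the low-NaCl diet, with an adjusted p of 0.0576 by edgeR. Within lane 1 the log2 ratio was -2.97. Leaving out low-NaCl library 3 gave -2.47 with an adjusted p of 0.0264. A read that also touched the neighbouring exon bases, which both identifiers share, would not be counted, and the read length is not known, so whether the counted reads stand for the spliced transcript was not tested. By DESeq2 the adjusted p was 0.00273 and by limma-voom 0.0474, while leaving out the other libraries gave 0.0675 to 0.217.

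**Figure D2:**
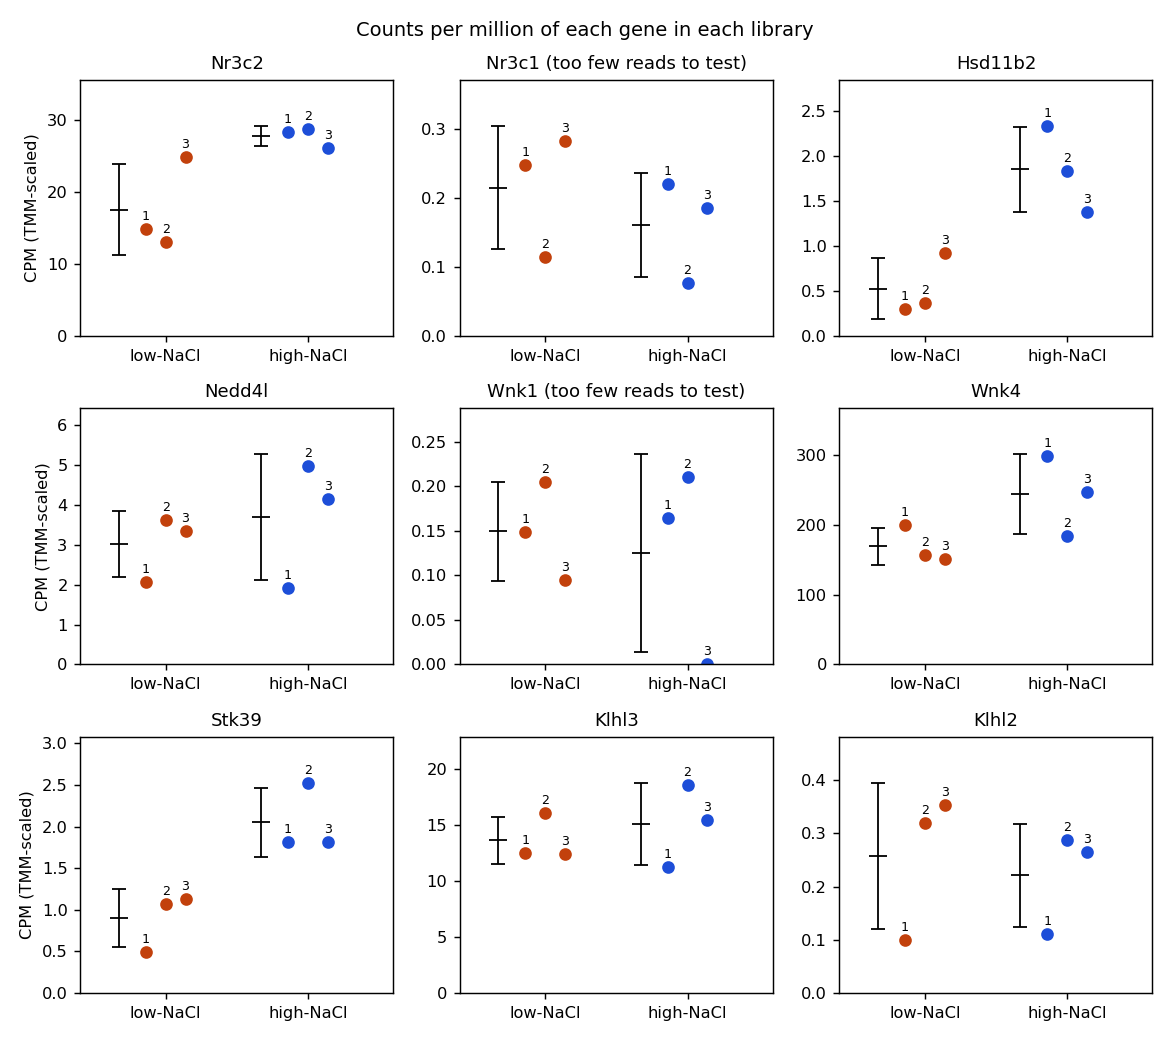
Level of each gene in CPM (y axis, starting at 0, a scale of its own in each panel) in the low-NaCl and high-NaCl libraries, each dot a library with its number, with the mean and SD of the 3 libraries drawn to the left of the dots. Nr3c2, Hsd11b2 and Stk39 separate the diets, with all low-NaCl dots below all high-NaCl dots, while the other panels overlap.

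Nedd4l had 2.06, 3.62 and 3.35 CPM in low-NaCl libraries 1 to 3 and 1.92, 4.97 and 4.15 CPM in high-NaCl libraries 1 to 3. The diets overlapped, and library 1 was the lowest of both. The log2 fold change was -0.29 ± 0.35 (SE, adjusted p = 0.713). Its reads came mostly from 2 identifiers. The first exon of the gene, 340 countable bases of identifier uc012beb.1, had 0.795, 1.09 and 0.731 CPM in the low-NaCl libraries and 1.02, 2.35 and 1.57 CPM in the high-NaCl libraries, with low-NaCl library 2 above high-NaCl library 1. Its log2 fold change was -0.93 ± 0.36 when every identifier was tested alone (SE, adjusted p = 0.215 by edgeR). Part of this exon overlaps A330084C13Rik, a gene on the opposite strand, and reads were counted without strand, so the reads of both cannot be told apart. The retained intron sequence of uc008fep.2, with 4542 countable bases and 52.1% of the gene's reads, had 1.12, 2.14 and 2.10 CPM in the low-NaCl libraries and 0.605, 2.20 and 2.34 CPM in the high-NaCl libraries. Its log2 fold change was 0.047 ± 0.46 (SE, adjusted p = 0.972). The ratio of the first exon to this retained intron was 0.714, 0.513 and 0.352 on the low-NaCl diet and 1.67, 1.07 and 0.672 on the high-NaCl diet, with overlap (two-sided exact permutation p = 0.2, chosen after the values were seen).

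Wnk4 had the most counted reads of the 9 genes. The kinase regulates sodium-chloride cotransport and is a target of KLHL3. It had 8019, 6862 and 6421 reads in low-NaCl libraries 1 to 3, against 10854, 9616 and 9298 reads in high-NaCl libraries 1 to 3. Its level was 199, 156 and 151 CPM in the low-NaCl libraries and 298, 184 and 247 CPM in the high-NaCl libraries. The lowest high-NaCl library, number 2, lay below low-NaCl library 1, so the diets overlapped. The log2 fold change was -0.53 ± 0.20 (SE, adjusted p = 0.190 by edgeR), and within lane 1 the log2 ratio was -0.58. Without high-NaCl library 2 it was -0.69 with an adjusted p of 0.0441, while leaving out any other single library gave 0.130 to 0.485. With sample weights in limma-voom it was -0.62 (adjusted p = 0.0241). The adjusted p was 0.119 by DESeq2 and 0.200 by limma-voom without weights, and with a lane term the log2 fold change was -0.58.

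Wnk1 encodes the kinase that acts upstream of SPAK in most cells, and the kidney makes a second form of it that lacks the kinase domain. Its countable alternative exons held 6, 9 and 4 reads in low-NaCl libraries 1 to 3 and 6, 11 and 0 reads in high-NaCl libraries 1 to 3, too few to test. The 0 in high-NaCl library 3 allows up to 3 reads by counting error alone. Of its 36 reads, 23 came from uc029vyi.1 and 8 from uc012ert.1, and no read could be counted in the exons that the longer identifiers share. No identifier was matched to the kidney form by name. The ratio of Wnk4 to Wnk1 reads overlapped between the diets (two-sided exact permutation p = 0.4, 0.6 adjusted over the 3 ratios).

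Stk39 encodes SPAK, the kinase that WNKs phosphorylate. It had 0.497, 1.07 and 1.13 CPM in low-NaCl libraries 1 to 3 and 1.81, 2.53 and 1.81 CPM in high-NaCl libraries 1 to 3. The diets did not overlap, and low-NaCl library 1 was the lowest of all. The log2 fold change was -1.19 ± 0.34 (SE), a 2.28-fold lower level on the low-NaCl diet that did not pass (adjusted p = 0.0981 by edgeR). By DESeq2 the adjusted p was 0.0254, leaving out any single library gave 0.148 to 0.219, and within lane 1 the log2 ratio was -1.87.

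Nearly all Stk39 reads came from 2 places, an internal exon and a retained intron. The exon between exons 5 and 6, 349 countable bases of uc029txy.1, held 83.2% of the gene's reads. It had 12, 30 and 38 reads in low-NaCl libraries 1 to 3, against 55, 121 and 61 reads in high-NaCl libraries 1 to 3, and the diets did not overlap. Its log2 fold change was -1.54 ± 0.40 when every identifier was tested alone (SE, adjusted p = 0.0724 by edgeR over 12192 identifiers, of which 2.82% were called). The identifier uc008jxp.1, which starts at the 5' end of the gene and was countable over 444 bases of a retained intron, had 8, 17 and 10 reads in the low-NaCl libraries and 11, 9 and 7 reads in the high-NaCl libraries, with overlap. Its log2 fold change was 0.33 ± 0.52 (SE, adjusted p = 0.802). The ratio of the internal exon to the retained intron was 1.47, 1.74 and 3.67 on the low-NaCl diet and 4.83, 12.8 and 8.20 on the high-NaCl diet. Every low-NaCl library lay below every high-NaCl library (exact permutation test, two-sided, p = 0.1, the lowest possible, 0.2 adjusted over this ratio and that of Nedd4l, both chosen after the values were seen). A short kidney form of SPAK made from an internal promoter, which lacks part of the kinase domain, is known in mice. Neither the counted identifiers nor GENCODE give uc029txy.1 that name, and GENCODE annotates its first exon in a non-coding transcript. Coding exons of Stk39 were not countable, so the level of the full-length transcript was not measured here.

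**Figure D3:**
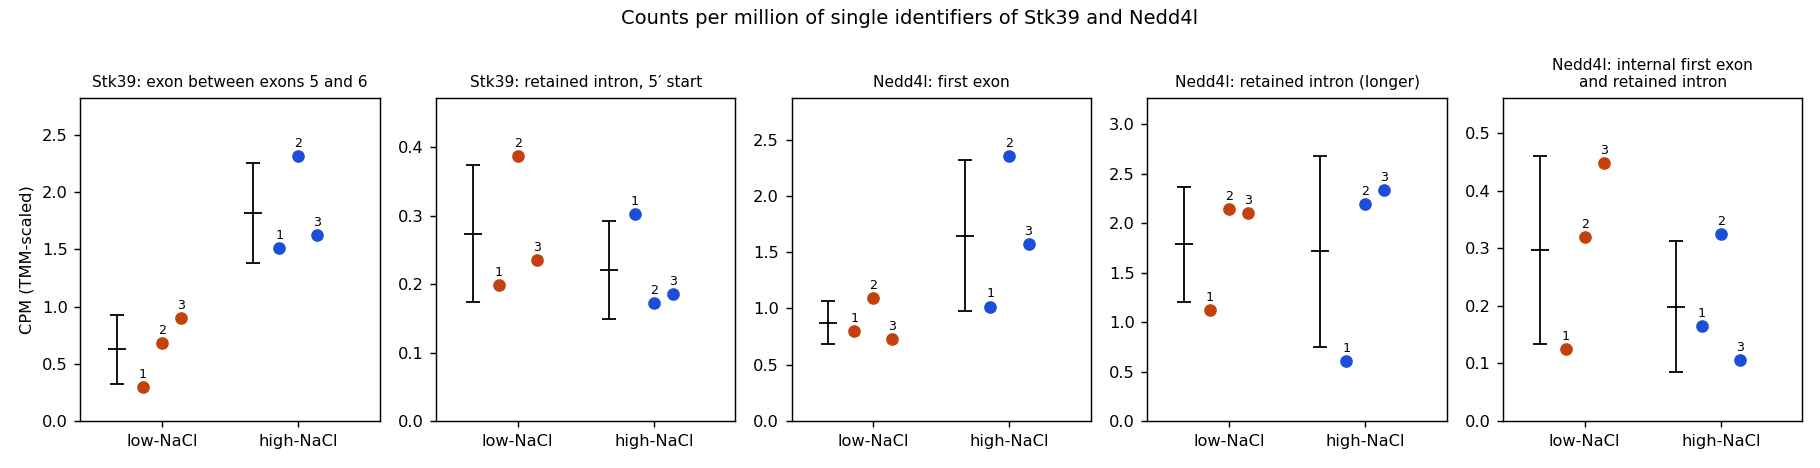
CPM (y axis, starting at 0, a scale of its own in each panel) of the 5 identifiers of Stk39 and Nedd4l with the most reads, in low-NaCl and high-NaCl libraries, each dot a library with its number, with the mean and SD of 3 libraries to the left. The exon between exons 5 and 6 of Stk39 separates the diets, the first exon of Nedd4l nearly does so, and the retained introns of both genes overlap.

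The adaptors of the CUL3 ligase showed the smallest differences. Klhl3, measured over its whole annotated identifier, had 12.5, 16.0 and 12.4 CPM in low-NaCl libraries 1 to 3 and 11.2, 18.5 and 15.4 CPM in high-NaCl libraries 1 to 3. The diets overlapped, with high-NaCl library 1 the lowest of the 6, and the log2 fold change was -0.15 ± 0.21 (SE, adjusted p = 0.765). Klhl2, read through its 3' untranslated region, had 4, 14 and 15 reads on the low-NaCl diet and 4, 15 and 10 reads on the high-NaCl diet. Its log2 fold change was 0.20 ± 0.60 (SE, adjusted p = 0.891), and so few reads leave room for a change of either sign. The ratio of Klhl3 to Klhl2 reads overlapped between the diets (two-sided exact permutation p = 0.7, 0.7 adjusted over the 3 ratios).

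Of the 9 genes, 7 passed the filter on low counts and 0 were called by edgeR, where 3.41% of all 10519 tested genes were called, 1.7% of them lower and 1.71% higher on the low-NaCl diet. At an unadjusted p under 0.05 there were 4 (Nr3c2, Hsd11b2, Wnk4 and Stk39), all lower on the low-NaCl diet, against 9.12% of all genes in that direction and 18.3% in either. DESeq2 called 2 of the 7, both lower on the low-NaCl diet, where it called 443 of all 10519 genes lower. In the same direction limma-voom called 1 of the 7 and 159 of all genes, and limma-voom with sample weights 2 and 578. The libraries of the diets did not overlap in 3 of the 7, all lower on the low-NaCl diet, against 11.6% of all tested genes that separated in that direction and 23.9% in either. The log2 fold change was below 0 in 6 of the 7, with a median of -0.53, where the median over all tested genes was -0.00183. The tested principal cell markers had a median log2 fold change of -1.27. The tested connecting tubule markers had one of -1.36, with Klk1 at -0.16, and the intercalated cell markers one of 1.38. Both Nr3c2 and Hsd11b2 are known from principal and connecting tubule cells. Whether the difference in those markers plays a part in that of the 2 genes was not tested.

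**Figure D4:**
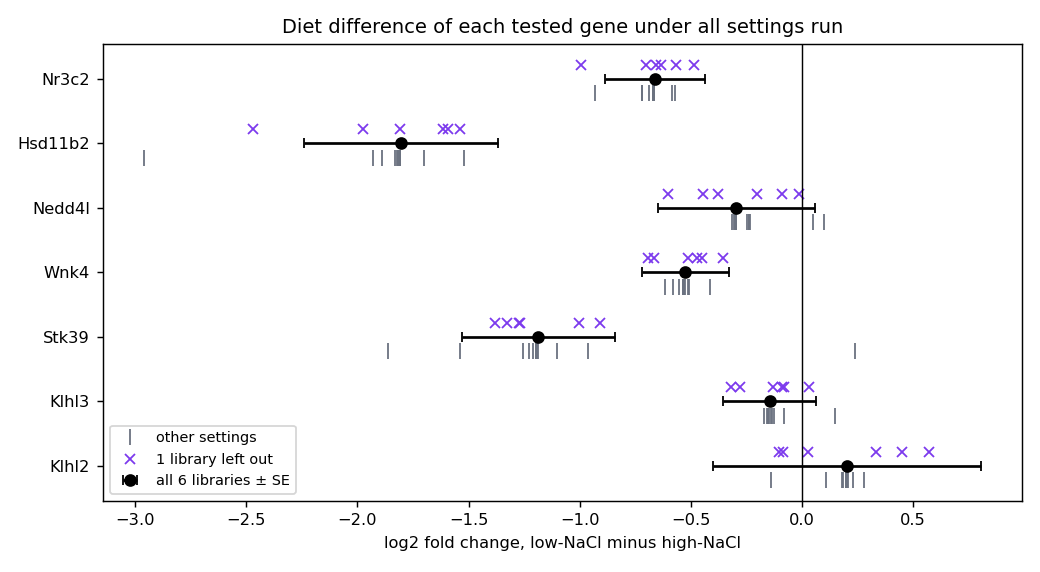
Log2 fold change, low-NaCl minus high-NaCl (x axis), of the 7 tested genes, as black dots with SE from all 6 libraries, crosses for fits that leave 1 library out, and ticks for the other settings run. Nr3c2, Hsd11b2 and Wnk4 lie below 0 in every fit, Stk39 has 1 tick above 0, from exact intron matches, and Nedd4l, Klhl3 and Klhl2 lie on both sides.

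Levels of different genes can be set side by side only per countable length. Per countable kilobase, Wnk4 measured 246 ± 38.3 CPM on the low-NaCl diet and 354 ± 83.5 CPM on the high-NaCl diet (SD, n = 3 each). Hsd11b2 came second, at 12.6 ± 8.13 CPM per kilobase in low-NaCl libraries and 44.1 ± 11.3 in high-NaCl libraries, a value and place that carry the doubt given above on which reads its 42 bases could count. Klhl3 followed at 6.36 ± 0.975 and 7.03 ± 1.71 CPM per kilobase on the low-NaCl and high-NaCl diets, and Nr3c2 at 4.29 ± 1.55 and 6.78 ± 0.344. Klhl3 and Nr3c2 overlapped on both diets, and on the low-NaCl diet Hsd11b2 and Klhl3 overlapped too. Stk39, Nedd4l, Nr3c1, Wnk1 and Klhl2 lay lower, between 0.129 and 0.814 CPM per kilobase on the low-NaCl diet and between 0.111 and 1.85 on the high-NaCl diet. These 5 are known here mostly through untranslated, alternative or retained intron sequence, with 180 coding bases in Nedd4l, 321 in Wnk1 and 56 in Klhl2, so their place says little of the coding transcript. Each neighbouring pair among them overlapped on the low-NaCl diet, and on the high-NaCl diet each did except Stk39, which lay above Nedd4l in every library.

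Partners of these genes were taken from 4 lists. Of the partners of WNK and SPAK and the cotransporters they act on, 8 of 11 were tested, and 1 was called higher and 0 lower (median log2 fold change 0.24). The one was Slc12a1, the sodium-potassium-chloride cotransporter NKCC2 of the thick ascending limb, at 61.6 ± 3.54 CPM on the low-NaCl diet and 32.6 ± 5.70 CPM on the high-NaCl diet (SD, n = 3 each, log2 fold change 0.92, adjusted p = 0.0158 by edgeR). Slc12a1 is itself a marker of that segment. The other 3 markers (Cldn16, Ptger3 and Umod) summed to 128, 109 and 100.1 CPM in low-NaCl libraries 1 to 3 and 90.4, 72.4 and 124 CPM in high-NaCl libraries 1 to 3, with overlap. Ptger3, the largest part of that sum, overlapped (log2 fold change 0.11, adjusted p = 0.822 by edgeR). Cldn16 (1.11, adjusted p = 0.0764) and Umod (0.33, adjusted p = 0.336) were higher in every low-NaCl library, though neither passed. The part of these markers in the Slc12a1 difference was not tested. Leaving out library 2 or 3 of the low-NaCl diet ended the Slc12a1 call (adjusted p 0.0522 and 0.0529). The log2 fold change was -0.10 with exact intron matches and 0.98 with a lane term. Slc12a3, the thiazide-sensitive cotransporter of the distal convoluted tubule and the best known SPAK substrate, named here after its values were seen, had 3.13 ± 0.581 CPM in low-NaCl libraries and 2.24 ± 0.663 CPM in high-NaCl libraries (SD, n = 3 each, adjusted p = 0.386 by edgeR). Oxsr1, which encodes the SPAK-like kinase OSR1, Wnk3 and Slc12a4 had no counted read, with 2.70%, 1.66% and 0.157% of their exonic bases countable.

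Of 6 genes of the CUL3 ligase, 5 were tested and 0 were called by edgeR, and their median log2 fold change was -0.00454. Those with the smallest p were Cand1, an exchange factor of cullin ligases, at 0.21 ± 0.12 (SE, adjusted p = 0.410), Ube2m, which attaches NEDD8 to cullins, at -0.14 ± 0.22 (SE, adjusted p = 0.791), and Rbx1, the RING subunit, at 0.059 ± 0.13 (SE, adjusted p = 0.848) on the log2 scale. Cul3 itself was too rarely counted to test.

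Of 13 chaperones and cofactors of steroid receptors, 10 were tested, with 1 called higher, 0 lower and a median log2 fold change of 0.35. The one was Stip1, a co-chaperone that hands steroid receptors to HSP90, at 319 ± 22.2 CPM on the low-NaCl diet and 212 ± 1.51 CPM on the high-NaCl diet (SD, n = 3 each, log2 fold change 0.59, adjusted p = 0.0416 by edgeR). That call ended with total-count scaling and without any 1 library except high-NaCl library 2 (adjusted p 0.0570 to 0.1975). With a lane term the log2 fold change was 0.51. Of 10 partners and substrates of NEDD4-2, 7 were tested, with 1 called higher, 1 lower and a median log2 fold change of 0.066. The kinase gene Sgk1, whose product inhibits NEDD4-2, rose by 3.35 on the log2 scale (adjusted p = 0.0419), or 5.24 without high-NaCl library 2. It was 38.2% countable, with 105, 425 and 337 reads in low-NaCl libraries 1 to 3 and 7, 79 and 6 reads in high-NaCl libraries 1 to 3. Both sizes thus rest on few high-NaCl reads. Its call ended by limma-voom, with no filter and with total-count scaling (adjusted p 0.0590 to 0.298). Leaving out library 2 or 3 of the low-NaCl diet or library 1 or 3 of the high-NaCl diet ended it too (adjusted p 0.0965 to 0.227). With a lane term the log2 fold change was 3.74. The ENaC subunit Scnn1g, also a principal cell marker, fell by 1.27 on the log2 scale (adjusted p = 0.0128). Leaving out library 2 of the low-NaCl diet ended that call (adjusted p = 0.0693), and with a lane term the log2 fold change was -1.39. The ENaC subunits did not move together. Scnn1a was higher in every low-NaCl library (0.56, adjusted p = 0.153 by edgeR). Scnn1b, 5.97% countable, was lower in every one (-1.72, adjusted p = 0.135 by edgeR).

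**Figure D5:**
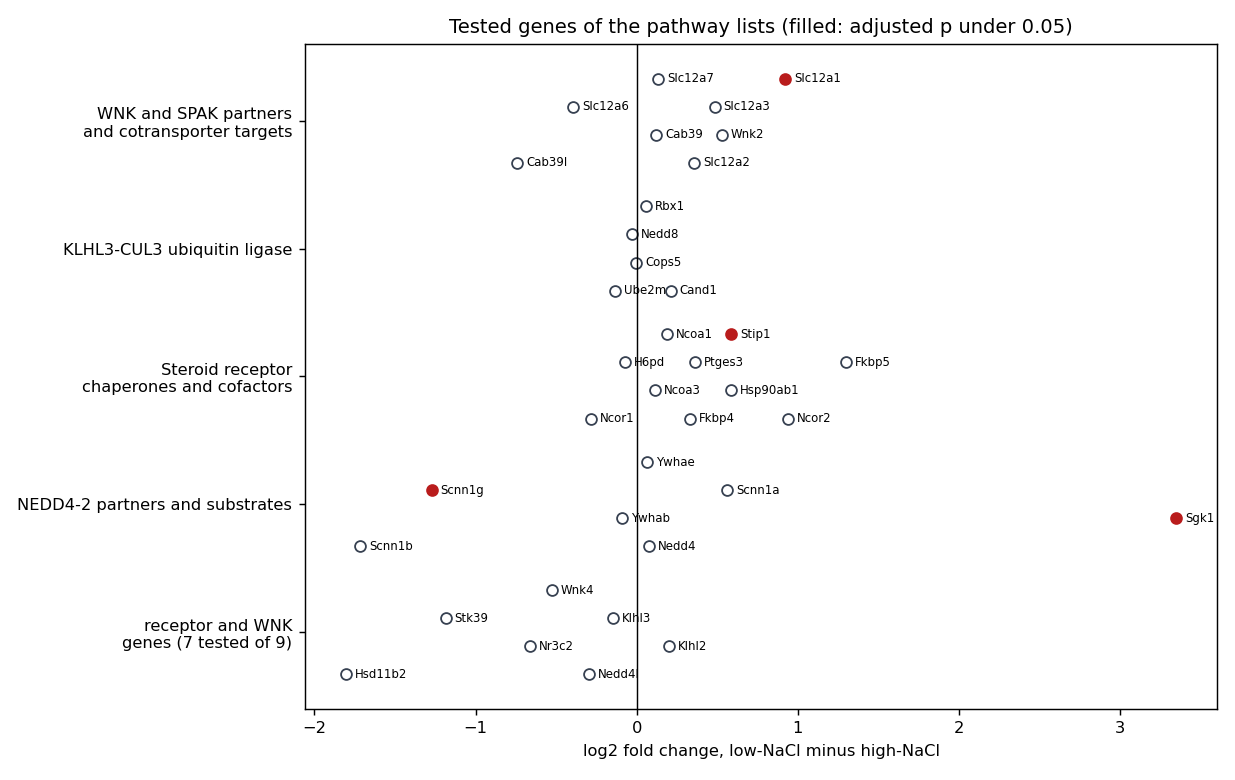
Log2 fold change, low-NaCl minus high-NaCl (x axis), of every tested gene of the 4 partner lists and of the receptor and WNK genes, filled where the adjusted p was under 0.05. Slc12a1, Stip1 and Sgk1 are filled on the right, Scnn1g is filled on the left, and none of the 7 receptor and WNK genes is filled.

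The genes whose levels followed Nr3c2 most closely across the 6 libraries were Fbln7, Frmpd1, Klk1b16, Nr1d2 and Spink12. They had the smallest root mean square differences from Nr3c2 in centred log2 CPM, 0.122 to 0.165, among 5029 tested genes that were at least 50% countable. Fbln7 encodes fibulin 7, a matrix protein, and had 8.40, 8.95 and 13.6 CPM in low-NaCl libraries 1 to 3 and 17.0, 15.9 and 16.9 CPM in high-NaCl libraries 1 to 3. Its low-NaCl library 3 lay nearest to the high-NaCl libraries, a feature of Nr3c2 that the choice by likeness favours. Nr1d2, which encodes the clock repressor REV-ERB beta, had 15.0, 13.7 and 33.8 CPM on the low-NaCl diet and 36.1, 29.7 and 29.2 CPM on the high-NaCl diet, with low-NaCl library 3 inside the high-NaCl range. None of the 5 passed the test of the diet (adjusted p 0.0592 to 0.385 by edgeR). Among the other tested receptor and WNK genes, Wnk4 came nearest to Nr3c2 (0.430), followed by Stk39 (0.458), and Klhl2 lay farthest (0.706).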

How the data were processed

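RNA of isolated collecting duct cells was sequenced in 6 libraries. The deposited files hold raw read counts per UCSC transcript identifier, made by the authors with featureCounts 1.5.0-p3 over exons of an mm10 annotation, per the file headers. The recorded command sets neither strand nor overlap handling, and by default such a run drops reads shared by several identifiers and ignores strand. Aligner and read length: not given in the sources used here. FastQC, Subread and edgeR are named in the submitters' notes on processing.

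The 59121 identifiers were matched to GENCODE M21 genes. The 6738 without a match (5.65% of counts) entered library sizes only. Gene sums went into edgeR 4.0.16 under R 4.3.3 (filterByExpr by diet, TMM, robust glmQLFit, glmQLFTest, no covariate), with Benjamini-Hochberg adjustment over all tested genes and a threshold of 0.05. SEs are the size of each log2 fold change over root F. The procedure was tested on simulated data. Alternatives used DESeq2 1.42.0, limma 3.58.1, other scalings, filters and matches, a replicate block, a lane term, and leaving out each library. Ratios used an exact permutation test in Python 3.11.15. No library was a copy of another: chi-square over degrees of freedom was 34.6 to 221 within diets.

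The genes, lists and naming rules were chosen with earlier results of these data known. Named were the 9 genes, every called gene of each list or else the 3 with the smallest p, and the 5 genes most like Nr3c2 whose log2 CPM averaged 1 or more. Depth, 40101899 to 46861531 reads, and the countable length limit the precision, and intervals or floors cover counting error only.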

Additional observations from a re-analysis of the deposited data

How the results depend on the processing

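The counts of all genes called higher and lower were 180 and 179 with all libraries. They were 402 and 443 by DESeq2, 577 and 578 with sample weights and 457 and 437 with the replicate block. Scaled by total counts they were 80 and 55, and with 1 library left out 32 to 291 and 36 to 251. With no filter 274 genes were called lower. A lane term leaves the diet difference to 1 library of each diet, so no count is given for it. Of the receptor and WNK genes, 0 were called higher under any setting run, and those called lower numbered 2 by DESeq2, 1 by limma-voom, 2 with sample weights, 1 with no filter, 3 with the replicate block and 0 to 2 with 1 library left out. Hsd11b2 was called by DESeq2 (-1.82), limma-voom (-1.93), sample weights (-1.52), no filter (-1.81) and the block (-1.89), Stk39 by DESeq2 (-1.20) and the block (-1.23), and Wnk4 by sample weights (-0.62) and the block (-0.51), all log2 fold changes. The replicate numbers were not taken as pairs in the main test, and whether they mark pairs was not tested. Deviations of same-numbered libraries correlated at 0.193, 0.272 and -0.0739 for numbers 1 to 3. Between libraries of different number the correlations were -0.285 to 0.102.

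Signs turned with exact intron matches for Stk39 (0.24), where they leave out uc029txy.1, and for Slc12a1 (-0.10). The sign of Nedd4l turned with its most read identifier alone (0.047). With a lane term, which sets library 1 of one diet against library 1 of the other, signs turned for Nedd4l (0.10), Klhl3 (0.15) and Klhl2 (-0.14). Klhl2 had 4 reads in each of those libraries. Other causes were not tested. With 1 library left out, log2 fold changes ranged from -0.99 to -0.48 for Nr3c2, -2.47 to -1.54 for Hsd11b2, -1.38 to -0.91 for Stk39, -0.69 to -0.35 for Wnk4, -0.60 to -0.013 for Nedd4l, -0.32 to 0.031 for Klhl3, -0.10 to 0.57 for Klhl2 and -0.29 to 0.036 for Ube2m. The log2 ratio differences ranged from -1.40 to -0.67 (Nr3c2 to Nr3c1), -2.36 to -0.13 (Wnk4 to Wnk1) and -0.75 to 0.12 (Klhl3 to Klhl2). Klhl2 gave no value with exact matches or the CPM filter. Few countable bases limit Hsd11b2, Nr3c1 and Wnk1, and Klhl2 rests on 62 reads.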
